A study of Mus musculus with 16 samples.

Results

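The livers of fasted vanin-1 knockout mice were compared with those of fasted wild type mice, on 8 of the 16 arrays of the study. The 8 arrays are the 4 titled as fasted knockout (fasted KO 1 to 4) and the 4 titled as fasted wild type (fasted WT 1 to 4), and the comparison covers 18820 genes. All mice were males aged 14 to 16 weeks, housed singly on standard chow. Wild type mice were C57Bl/6J, knockout mice were vanin-1 null with the same strain background on the label, and both fasted groups had gone 24 h without food. The other 8 arrays, 4 from fed wild type and 4 from fed vanin-1 null mice, share the estimate of the spread and give the same genotype comparison without fasting. The label names the background strain but not how the null allele was made, and nowhere is it stated that each array is a separate animal, so the tests compare differences with the spread among these samples, which may be technical.

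Vnn1 encodes vanin-1, a pantetheinase held on the outer face of the cell membrane. It splits pantetheine, a breakdown product of coenzyme A, into pantothenate (vitamin B5), from which coenzyme A is rebuilt, and cysteamine, an aminothiol. In liver Vnn1 is a target of PPARα, the nuclear receptor that senses fatty acids released during fasting and switches on genes of fatty acid uptake, oxidation and ketone body synthesis. A fasted liver also makes less sterol and fatty acid and turns amino acids into glucose.

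Levels are log2 RMA intensities, between 1.26 and 14.19, and the array medians lay between 5.19 and 5.29. Differences are log2 levels in knockout minus wild type. A gene is called when its limma p, adjusted over all 18820 genes by Benjamini-Hochberg, is below 0.05, and only called genes are said to rise or fall. A fold is given as "at least" where the lower group mean is under 5.29, since a dim gene shows less than its full change on an array. The arrays of fasted wild type liver correlated at 0.989 to 0.995 with each other across genes and those of fasted knockout liver at 0.994 to 0.996. With 4 arrays a group, precision is limited by their number.

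Hepatocyte markers were high on all 8 arrays, with means over the 8 measured markers from 12.97 to 13.14. Fasted WT 4 stands apart from the other 7 arrays on transcripts of the exocrine pancreas. Its mean over 19 pancreatic markers was 7.47, against 3.72 to 3.77 on fasted WT 1 to 3 and 3.69 to 3.79 on the knockout arrays. The chymotrypsinogen gene Ctrb1 lay at 10.12 on fasted WT 4, at 4.07 to 4.31 on the other wild type arrays and at 4.04 to 4.36 on the knockout arrays. Results below are therefore also given without fasted WT 4. In whole liver, fewer cells of a type and less RNA per cell cannot be told apart.

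Of all genes, 3 were called (0.0159%). Vnn1 fell, and Cpne5 and Ctse rose in the knockout. Vnn1 itself checks the genotype labels, which all 8 arrays matched. It lay at 11.47, 11.24, 9.93 and 10.60 on fasted WT 1 to 4 and at 4.26, 4.22, 3.67 and 3.77 on fasted KO 1 to 4. The groups are far apart and the knockout levels are near background. The difference was -6.83 (SE 0.54, limma adjusted p = 1.05e-05), at least 114-fold, and -6.90 without fasted WT 4.

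Cpne5 encodes copine-5, a calcium-dependent phospholipid-binding protein. Its levels were 4.35, 4.22, 4.27 and 4.34 in fasted wild type liver and 6.13, 5.35, 4.98 and 6.13 in fasted knockout liver. Wild type liver was at background on all 4 arrays, all 4 knockout arrays lay above it, and fasted KO 3 was the lowest of them. The rise was 1.35 (SE 0.18, limma adjusted p = 0.0113), at least 2.55-fold. Without fasted WT 4 it was 1.37 (limma adjusted p = 0.0469). The SE pools the spread of fasted and fed groups, most of them near background for this gene. The SD was 0.58 in fasted knockout liver, against 0.06 in fasted wild type, 0.02 in fed wild type and 0.07 in fed knockout liver. The call ended without fasted WT 2 (limma adjusted p = 0.0748), with only the 8 fasted arrays in the fit (0.378), and without fasted KO 1, fed WT 2 and fed KO 4 (0.188), the arrays whose names end in 2. It also ended without fasted WT 1 and 4 (limma adjusted p = 0.145).

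Ctse encodes cathepsin E, an aspartic protease of the endosomal system. It lay at 6.18, 5.88, 6.61 and 6.26 in fasted wild type and at 8.47, 8.72, 8.17 and 8.54 in fasted knockout liver. The groups were separated by more than 1 log2 unit, and no array stood apart within its group. The rise was 2.24 (SE 0.33, limma adjusted p = 0.0224), 4.73-fold. The SE pools fasted and fed groups here too. The SD was 0.30 in fasted wild type and 0.23 in fasted knockout liver, against 0.80 and 0.63 in fed liver. With only the 8 fasted arrays in the fit the call held (limma adjusted p = 2.96e-04). The size of the rise hardly moved without fasted WT 4 (2.25), while the call ended (limma adjusted p = 0.0926). It also ended without any single fasted array other than fasted WT 3, at adjusted p between 0.0538 and 0.157, with a robust prior (limma adjusted p = 0.166), with title number as a block (0.0606), without the arrays whose names end in 2 (0.248), without fasted WT 1 and 4 (0.286) and in the fit of all probe sets (0.0684).

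**Figure D1:**
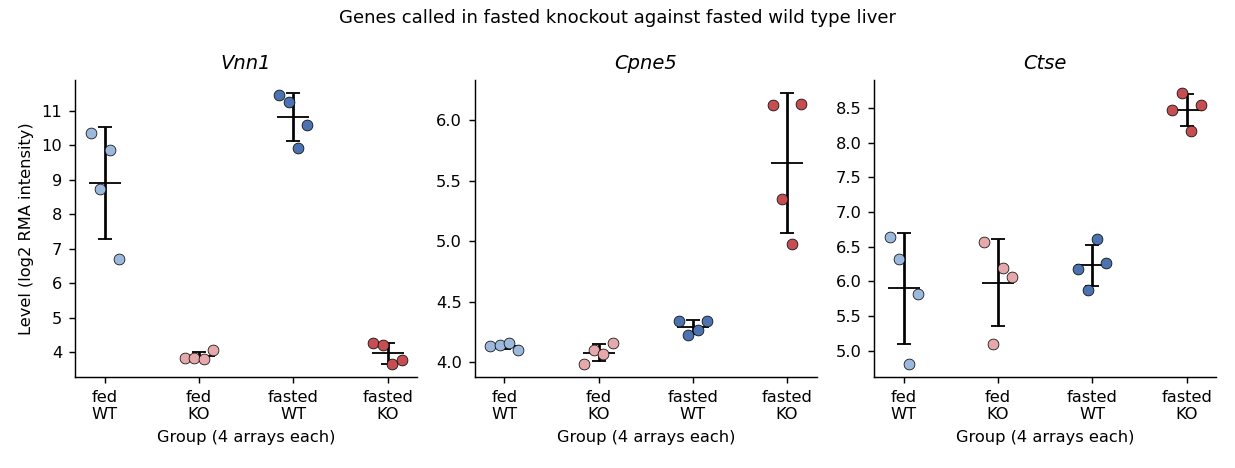
Levels (log2 RMA intensity, vertical axis) of Vnn1, Cpne5 and Ctse on all 16 arrays by group (horizontal axis). Points are arrays, the horizontal line is the mean of 4 arrays and the bars are ± 1 SD. Fasted knockout arrays lay at 3.67 to 4.26 for Vnn1, at 4.98 to 6.13 for Cpne5 and at 8.17 to 8.72 for Ctse, outside the range of the fasted wild type arrays in each case.

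The fed liver served to ask which of these differences depended on fasting. Cpne5 lay at 4.10 to 4.16 in fed wild type and at 3.99 to 4.16 in fed knockout liver, a difference of -0.06. The genotype difference of fasted liver exceeded that of fed liver by 1.41 (limma interaction adjusted p = 0.894). Ctse lay at 4.81 to 6.65 in fed wild type and at 5.09 to 6.57 in fed knockout liver, a difference of 0.08. Here the fasted difference was larger by 2.16 (limma interaction adjusted p = 0.948). Vnn1 differed by -5.02 in fed liver, and the fasted difference minus the fed one was -1.81 (limma interaction adjusted p = 0.948). By limma's interaction test 0 of 18820 genes passed the adjusted threshold, and 924 (4.91%) had an unadjusted p below 0.05. The difference between the fasted and the fed comparison was therefore not established for any single gene.

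Among the smallest interaction p-values were also Krt23, Cwf19l1, Rskr and Stk10. Krt23, a keratin gene, lay at 5.81, 5.92, 6.18 and 4.78 in fasted wild type and at 6.84, 6.60, 6.89 and 6.33 in fasted knockout liver. All knockout arrays were above all wild type arrays, and fasted WT 4 was the lowest. The difference was 0.99 in fasted and -0.64 in fed liver (limma interaction adjusted p = 0.948), and 0.69 in fasted liver without fasted WT 4. Cwf19l1 differed by 0.48 in fasted and -0.27 in fed liver, Stk10, a serine/threonine kinase gene, by 0.23 and -0.30, and the kinase-related gene Rskr by -0.31 and 0.30.

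At an unadjusted limma p below 0.05 there were 1033 genes (5.49%), of which 601 (3.19% of all) lay higher and 432 (2.30%) lower in fasted knockout liver. This split depends on the scaling: with each array centred on its median it became 356 higher and 658 lower, while the median of all genes moved from 0.0014 to -0.028. In 311 genes (1.65%) all knockout arrays lay above all wild type arrays, and in 282 (1.50%) below. The gene list counts below are to be set beside these shares, 3.19% higher and 2.30% lower at an unadjusted limma p below 0.05. A difference of at least 2-fold was found for 29 genes, 12 higher and 17 lower in the knockout. Of the 17, several are digestive enzymes of the pancreas that differed through fasted WT 4: Cpa1 had a difference of -1.33 with that array and 0.01 without it. Gene by gene, the spread was wider in fasted wild type than in fasted knockout liver for 11046 genes (58.7%), with median SDs of 0.143 and 0.124.

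**Figure D2:**
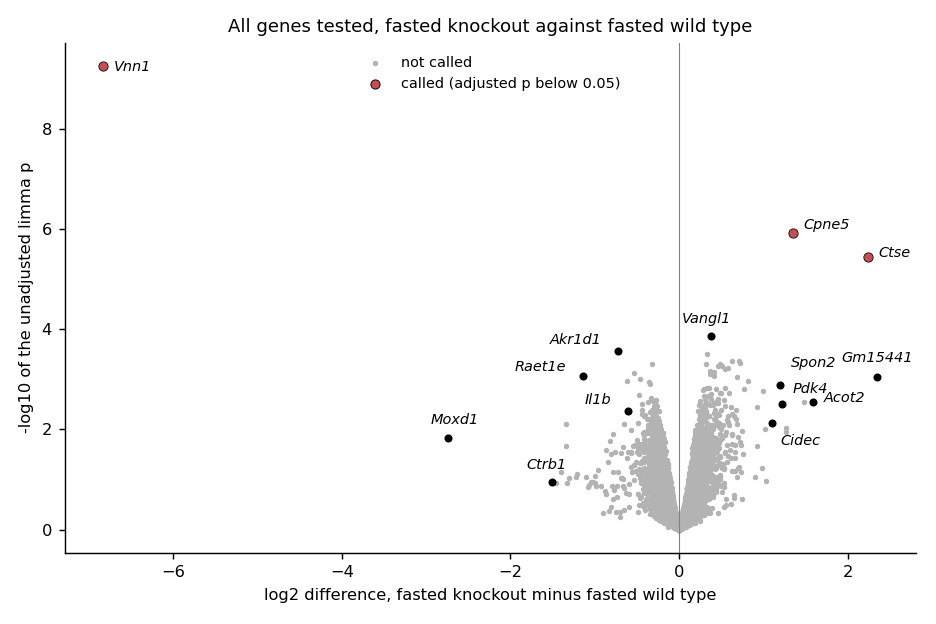
Log2 difference between fasted knockout and fasted wild type liver (horizontal axis) against -log10 of the unadjusted limma p (vertical axis) for the 18820 genes. Red points are the 3 called genes and black points are other genes named in the text. Ctrb1 and Moxd1 lie far to the left at modest p, because their wild type arrays ranged from 4.07 to 10.12 and from 4.25 to 10.10.

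The largest difference among genes higher in the knockout was that of Gm15441, a long noncoding RNA, singled out after its values were seen. It lay at 10.38, 9.79, 6.89 and 7.87 on fasted WT 1 to 4 and at 11.31, 10.75, 11.29 and 10.98 on fasted KO 1 to 4. The knockout arrays were close together and the wild type arrays spanned more than 3 log2 units. The difference was 2.35 (SE 0.58, limma adjusted p = 0.707), against -0.15 in fed liver. It was 2.06 without fasted WT 4.

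Among well expressed genes whose groups did not overlap and whose unadjusted p was below 0.01, 59 lay higher and 10 lower. These counts leave out predicted genes, such as Gm15441, and the receptor families skipped by the rule for named genes. Besides Ctse and Pdk4, described below, the largest differences upward included Spon2, which encodes a secreted matrix protein (1.19), the phospholipase gene Pla2g6 (0.72), Pdilt, of the protein disulfide isomerase family (0.71), the imprinted gene Peg3 (0.69) and the purinergic receptor gene P2ry1 (0.67). Their adjusted limma p lay between 0.707 and 0.85. Spon2 lay at 8.39, 7.38, 7.22 and 6.61 in wild type and at 9.00, 8.42, 8.55 and 8.42 in knockout liver. Fasted WT 1 came close to the knockout arrays, as it did for Gm15441. The smallest p after the called genes belonged to Vangl1, a planar cell polarity gene chosen here after its values were seen, with 6.62 to 6.81 in wild type and 7.03 to 7.12 in knockout liver (difference 0.38, limma adjusted p = 0.646).

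Under the conditions above, fewer genes lay lower. At an unadjusted limma p below 0.05 the split varied with the setting. The main fit gave 601 higher and 432 lower, and genes above the median level gave 425 and 146. Median centring of the arrays turned it to 356 and 658. Akr1d1 encodes the 5β-reductase of bile acid synthesis. It lay at 9.73, 10.32, 10.15 and 10.30 in fasted wild type and at 9.41, 9.66, 9.20 and 9.34 in fasted knockout liver. No knockout array reached a wild type array. The difference was -0.72 (SE 0.16, limma adjusted p = 0.707), against 0.02 in fed liver. Ikbke, a kinase of innate immune signalling, differed by -0.49, the tight junction gene Cldn14 by -0.46, the kinase gene Stk17b by -0.44 and the collagen gene Col1a2 by -0.41, each without overlap between the groups. Differences of at least 2-fold with overlapping groups and no call were found for the immediate early gene Nr4a1 (-1.35, with 5.64 to 8.19 in wild type and 5.15 to 6.41 in knockout liver) and the organic anion transporter gene Slco1a4 (-1.34, with 9.46 to 10.87 and 7.27 to 9.98), both chosen after their values were seen.

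Genes of fatty acid oxidation lay mostly higher in fasted knockout liver, with list medians of 0.23 (peroxisomal and omega) and 0.17 (mitochondrial) and none of them called. All 23 measured PPARα target genes of peroxisomal and omega oxidation had a positive difference, against 50.5% of all genes. Of these 23, 8 lay higher at an unadjusted limma p below 0.05 (3.19% of all genes) and 0 lower, 6 had all knockout arrays above all wild type arrays (1.65% of all genes), and 0 were called. Without fasted WT 4, 22 were positive and 4 lay higher at an unadjusted limma p below 0.05 (2.56% of all genes). Their median was 0.23, against 0.0014 for all genes, 0.25 without fasted WT 4 and 0.02 in fed liver. The genes were measured on the same arrays, so they are not independent of each other. The mean of the list was 11.26, 11.25, 11.03 and 10.91 on fasted WT 1 to 4 and 11.48, 11.29, 11.47 and 11.39 on fasted KO 1 to 4. The knockout arrays lay above the wild type arrays, but fasted KO 2 was only just above fasted WT 1 and 2.

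**Figure D3:**
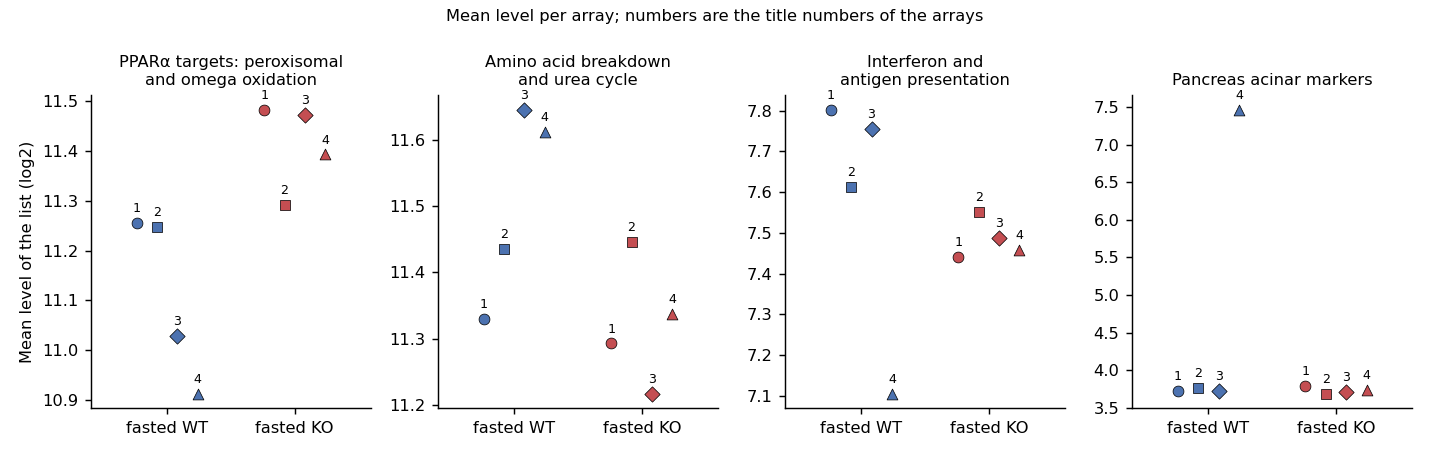
Mean log2 level (vertical axis) of 4 gene lists on each fasted array, by genotype (horizontal axis), with the title number beside each point. On the PPARα list fasted WT 3 and 4 were lowest (11.03 and 10.91), on the interferon list fasted WT 4 was lowest (7.11), and on the pancreas list it was highest (7.47).

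Ehhadh, the bifunctional enzyme of peroxisomal beta oxidation, lay at 13.01, 12.84, 12.53 and 12.47 in fasted wild type and at 13.27, 13.20, 13.26 and 13.16 in fasted knockout liver. The groups did not overlap (difference 0.51, SE 0.19, limma adjusted p = 0.867). In fed liver the difference was -0.30 (limma interaction adjusted p = 0.948). The peroxisomal thiolase genes Acaa1a and Acaa1b differed by 0.36 and 0.73, Pex11a, which encodes a peroxisome division protein, by 0.66, Abcd3, a peroxisomal fatty acid importer gene, by 0.26, and Crat, the carnitine acetyltransferase gene, by 0.44. Acaa1b lay at 11.04 to 11.70 in wild type and at 12.02 to 12.22 in knockout liver. Pex11a overlapped, since fasted KO 2 (11.59) lay below fasted WT 1 and 2 (11.66 and 11.79), and Crat overlapped by fasted WT 1 (11.31) and fasted KO 2 (11.26). Hsd17b4, a peroxisomal multifunctional enzyme gene, did not overlap (difference 0.26), with fasted WT 2 at 11.54 and fasted KO 2 at 11.55. For 17 of the 23 genes the genotypes overlapped. Cyp4a14, a fatty acid omega-hydroxylase gene, lay at 13.17 to 13.25 in wild type and at 13.10 to 13.28 in knockout liver, near the top of the scale of the array. Ppara itself lay at 10.59 to 11.19 and at 11.02 to 11.29 (difference 0.13, and -0.0022 without fasted WT 4).

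In mitochondrial beta oxidation 18 of 21 measured genes had a positive difference (50.5% of all genes). An unadjusted limma p below 0.05 was found for 5, all higher (3.19% of all genes), and 0 were called. The median was 0.17, 0.15 without fasted WT 4 and 0.02 in fed liver. Slc22a5, the carnitine importer gene, lay at 9.85, 9.53, 9.26 and 9.11 in wild type and at 10.19, 10.01, 10.11 and 9.93 in knockout liver (difference 0.63, SE 0.24, limma adjusted p = 0.867). The groups did not overlap, and fasted WT 1 was the nearest to the knockout arrays. Smaller differences were found for the medium-chain dehydrogenase gene Acadm (0.26), the carnitine palmitoyltransferase gene Cpt2 (0.27) and Hadhb, a subunit gene of the trifunctional protein (0.27). Cpt1a, which controls fatty acid entry into mitochondria, lay at 12.23 to 12.49 in wild type and at 12.27 to 12.36 in knockout liver, a difference of 0.0049 whose sign turned under other scalings.

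The acyl-CoA thioesterases, which release free fatty acid and coenzyme A from acyl-CoA, gave the largest single differences among lipid genes on all 8 arrays, while without fasted WT 4 that of Cidec (1.34) was larger. Acot2, the mitochondrial enzyme, lay at 12.02, 9.89, 9.58 and 9.10 in fasted wild type and at 11.77, 11.22, 12.21 and 11.73 in fasted knockout liver. Fasted WT 1 lay inside the range of the knockout arrays and the other 3 wild type arrays far below it. The difference was 1.59 (SE 0.45, limma adjusted p = 0.842), 2.21 without fasted WT 1 (limma adjusted p = 0.00922, a call) and 1.24 without fasted WT 4. Acot1, the cytosolic enzyme, lay at 10.22, 9.55, 8.70 and 8.67 in wild type and at 10.90, 10.25, 10.56 and 10.51 in knockout liver. These groups did not overlap, with fasted WT 1 just under fasted KO 2 (difference 1.27, limma adjusted p = 0.867). The peroxisomal genes Acot3 and Acot4 differed by 0.90 and 0.66, and by 0.46 and 0.48 without fasted WT 4. The genes of this cluster are close copies of each other, so probes may share signal between them. Over the 15 measured genes of the list the median was 0.12, with 11 positive differences, 2 at an unadjusted limma p below 0.05, both higher, and 0 calls.

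**Figure D4:**
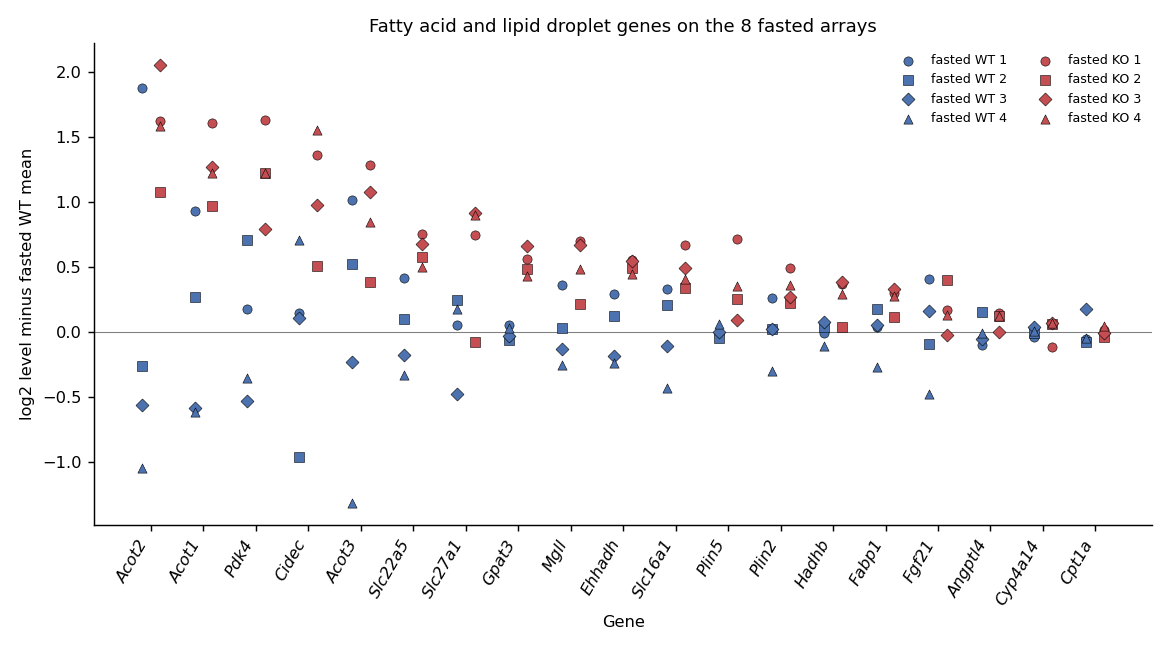
Log2 level minus the fasted wild type mean (vertical axis) of 19 fatty acid and lipid droplet genes (horizontal axis) on the 8 fasted arrays. Blue symbols are wild type and red symbols knockout arrays, and the shape gives the title number. For Acot2 the wild type circle (12.02) lies among the knockout arrays (11.22 to 12.21), and for Cyp4a14 and Cpt1a both genotypes lie near 0.

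Ketone body genes showed no common direction. Of 12 measured genes 8 had a positive difference, with a median of 0.10 that was 0.0040 without fasted WT 4. At an unadjusted limma p below 0.05, 2 lay higher and 1 lower, and 0 were called. Pdk4, the kinase that shuts off pyruvate oxidation, lay at 9.35, 9.88, 8.64 and 8.82 in fasted wild type and at 10.81, 10.40, 9.96 and 10.40 in fasted knockout liver. All knockout arrays lay above all wild type arrays (difference 1.22, SE 0.35, limma adjusted p = 0.842), while fed liver gave -0.02. Slc16a1, a transporter gene for ketone bodies and lactate, differed by 0.48 and also did not overlap. Bdh1, the ketone body dehydrogenase gene, lay at 11.02, 11.07, 11.02 and 10.12 in wild type and at 10.76 to 11.21 in knockout liver, so its difference of 0.21 became -0.02 without fasted WT 4. The fasting hormone gene Fgf21 lay at 6.36 to 7.24 in wild type and at 6.81 to 7.23 in knockout liver (difference 0.17, and 0.0095 without fasted WT 4).

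Of 19 measured genes of fatty acid uptake, binding and activation 12 had a positive difference, with a median of 0.19 (0.17 without fasted WT 4). At an unadjusted limma p below 0.05, 5 lay higher (3.19% of all genes), and 0 were called. The fatty acid transporter gene Slc27a1 lay at 9.02, 9.22, 8.50 and 9.15 in wild type and at 9.72, 8.89, 9.89 and 9.87 in knockout liver. Fasted KO 2 lay within the wild type range and the other 3 knockout arrays above it (difference 0.62, limma adjusted p = 0.867). The scavenger receptor gene Cd36, which takes up fatty acids, differed by 0.55, the acyl-CoA binding protein gene Dbi by 0.33, Acsl5, an acyl-CoA synthetase gene, by 0.26 and the liver fatty acid binding protein gene Fabp1 by 0.26. The uptake median depended on single arrays, with 0.06 without fasted WT 3 and 0.29 without fasted KO 2.

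PPARα binds DNA at direct repeats of a short site with a 1-base gap. The letters AGGNCANAGGNCA, searched on both strands, were found in 125 of 32851 RefSeq promoters of 300 bases (0.381%), each running from 250 bases before to 50 after a gene start. Of the 108 genes measured over the oxidation, ketone body, thioesterase, uptake and lipid droplet lists, 84 had a promoter in the table, and 1 of them, Fabp1, held these letters. The window is shown because it is the only match among these genes. It lies on the plus strand of chromosome 6 of GRCm38.p6, at chr6:71199792-71199844, with the motif starting 67 bases before the gene start and reading on the opposite strand. Capitals mark the match, which is a description of letters and not evidence of binding.

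Fabp1 promoter window: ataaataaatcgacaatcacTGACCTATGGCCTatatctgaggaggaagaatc

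Among lipid droplet genes the largest difference was that of Cidec, which encodes a protein of the droplet surface that promotes fat storage. It lay at 8.82, 7.71, 8.78 and 9.38 in fasted wild type and at 10.04, 9.18, 9.65 and 10.23 in fasted knockout liver. Fasted WT 4 lay above fasted KO 2, and the remaining arrays were separated by genotype. The difference was 1.10 (SE 0.36, limma adjusted p = 0.854), and 1.34 without fasted WT 4. In fed liver it was -0.44 (limma interaction adjusted p = 0.948). Of 22 measured droplet and lipolysis genes 17 had a positive difference and 2 lay higher at an unadjusted limma p below 0.05, with 0 called and a median of 0.16. With fasted WT 4 left out, 14 of 22 were positive and the median was 0.14. Mgll, the monoglyceride lipase gene, differed by 0.52, the droplet coat genes Plin5 and Plin2 by 0.35 and 0.34, and G0s2, which encodes an inhibitor of the main triglyceride lipase, by 0.69. Plin5 had all knockout arrays (9.94 to 10.57) above all wild type arrays (9.81 to 9.92).

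In glycerolipid synthesis the glycerol phosphate acyltransferase gene Gpat3 lay at 7.43, 7.31, 7.34 and 7.40 in wild type and at 7.93, 7.86, 8.03 and 7.80 in knockout liver. Both groups were tight and did not overlap (difference 0.54, SE 0.15, limma adjusted p = 0.842). Gpd1, the glycerol phosphate dehydrogenase gene, differed by 0.36 and Mogat1, a monoacylglycerol acyltransferase gene, by 0.61. Over the 19 measured genes 12 had a positive difference, with a median of 0.04. At an unadjusted limma p below 0.05, 4 lay higher (3.19% of all genes), and 0 were called. Among 20 measured lipoprotein and lipase regulator genes the median was -0.0020 and 0 were called by limma. At an unadjusted p below 0.05 there was 1 in each direction, the lipoprotein assembly gene Mttp (0.25) and the HDL receptor gene Scarb1 (-0.21). Angptl4, a fasting-induced lipase inhibitor gene, lay at 10.88 to 11.13 in wild type and at 10.98 to 11.12 in knockout liver.

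The coenzyme A genes bear on the reaction that vanin-1 catalyses. Of 19 measured genes of coenzyme A synthesis and breakdown 15 had a positive difference, 3 lay higher at an unadjusted limma p below 0.05 and 0 were called. The median of 0.11 became 0.12 when fasted WT 4 was left out and 0.05 when fasted WT 3 was. Ppcs, which encodes the enzyme that joins phosphopantothenate to cysteine, lay at 7.15, 7.47, 6.86 and 7.02 in wild type and at 7.80, 7.30, 7.61 and 7.63 in knockout liver. Fasted KO 2 lay within the wild type range (difference 0.46, SE 0.13, limma adjusted p = 0.842). Dcakd, whose product resembles the last kinase of the pathway, differed by 0.44 without overlap (8.65 to 9.11 against 9.14 to 9.43). The pantothenate kinase genes Pank1 and Pank3, which start the pathway, differed by 0.17 and 0.14. Vnn3, which encodes another pantetheinase, lay at 9.17, 9.51, 9.12 and 9.07 in wild type and at 9.70, 9.43, 9.63 and 9.68 in knockout liver. Fasted KO 2 lay just under fasted WT 2, and the difference of 0.39 did not pass (limma adjusted p = 0.894).

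Genes of cysteine handling and antioxidant defence gave small differences in both directions. Of 21 measured cysteine, taurine and methionine genes 6 had a positive difference, with 2 higher and 3 lower at an unadjusted limma p below 0.05, 0 called and a median of -0.08. Cth, the enzyme gene that makes cysteine from cystathionine, lay at 12.38, 12.50, 13.04 and 12.77 in wild type and at 12.08, 12.56, 12.15 and 12.22 in knockout liver (difference -0.42, limma adjusted p = 0.867). Fasted KO 2 lay within the wild type range. Cdo1, the cysteine dioxygenase gene, differed by -0.20. Of 39 measured glutathione and antioxidant genes 27 had a positive difference, 1 lay lower at an unadjusted limma p below 0.05 (Gsta3, -0.23) and 0 were called, with a median of 0.05 (0.03 without fasted WT 4). The subunit genes of the first enzyme of glutathione synthesis were nearly level, with differences of 0.12 for Gclc and 0.01 for Gclm. The sign of Gclc turned without fasted WT 4 (-0.03), and that of Gclm when each array was centred on its median. Oxidative phosphorylation genes were level too (42 measured, median -0.0030, 1 higher at an unadjusted limma p below 0.05, 0 called).

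Sterol synthesis genes leaned the other way, but not on every array. Of 20 measured genes 2 had a positive difference, 1 lay lower at an unadjusted limma p below 0.05 (the sterol sensor gene Insig1, -0.51) and 0 were called. The median was -0.21, -0.15 without fasted WT 4 and 0.13 in fed liver. It was -0.069 when fasted KO 2 was left out and -0.34 when fasted WT 3 was. List means were 8.58, 8.89, 8.28 and 8.73 on the wild type arrays and 8.62, 7.95, 8.95 and 8.13 on the knockout arrays. Fasted KO 2 and 4 were low while fasted KO 3 was the highest of the 8. The array names carry a code that the labels do not explain, 5 for arrays 1 and 3 of each group and 7 for arrays 2 and 4, and within these codes the median was 0.31 and -0.68. Sqle, the squalene epoxidase gene, spanned 6.32 to 7.79 in wild type and 5.52 to 7.84 in knockout liver. The direction of the sterol genes thus differed between the codes, and the part of the code in the result was not tested.

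Fatty acid synthesis and desaturation genes had 16 of 23 positive differences, 1 higher and 1 lower at an unadjusted limma p below 0.05, 0 called and a median of 0.06. Srebf1, which encodes the regulator of lipogenesis SREBP-1, lay at 7.17, 7.13, 6.85 and 7.18 in wild type and at 7.74, 7.48, 7.44 and 7.37 in knockout liver, without overlap (difference 0.42, limma adjusted p = 0.885). Fasn, the fatty acid synthase gene, differed by 0.02 and Scd1, the stearoyl-CoA desaturase gene, by -0.06, with signs that turned between settings. Thrsp, another lipogenic regulator gene, lay at 8.71 on fasted WT 4 against 6.25 to 7.14 on the other wild type arrays and 5.99 to 6.90 on the knockout arrays. Its difference of -0.73 became -0.23 without that array. Besides Akr1d1, the 23 bile acid and sterol export genes had a median of -0.04 and no further gene at an unadjusted limma p below 0.05, and 0 were called.

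Amino acid breakdown and urea cycle genes lay mostly lower in fasted knockout liver. Of 28 measured genes 27 had a negative difference (9324 of all 18820 genes). Of the 28, 7 lay lower at an unadjusted limma p below 0.05 (2.30% of all genes) and 0 were called. The median was -0.13, -0.11 without fasted WT 4 and 0.03 in fed liver. Prodh, the proline dehydrogenase gene, lay at 9.55, 10.21, 9.83 and 10.59 in wild type and at 9.49, 9.60, 9.13 and 9.66 in knockout liver (difference -0.57, SE 0.20, limma adjusted p = 0.867). Fasted WT 1 lay among the knockout arrays, and in fed liver the difference was 0.44 (limma interaction adjusted p = 0.948). Agxt, the glyoxylate aminotransferase gene, differed by -0.41, and Cps1, the entry enzyme gene of the urea cycle, by -0.27. List means were 11.33, 11.44, 11.65 and 11.61 on fasted WT 1 to 4 and 11.29, 11.45, 11.22 and 11.34 on fasted KO 1 to 4. Fasted WT 3 and 4 were high, and fasted WT 1 and 2 lay within the range of the knockout arrays. The same 2 arrays, fasted WT 3 and 4, were the lowest on the PPARα list.

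Gluconeogenesis genes differed little. Of 24 measured genes 7 had a positive difference, 2 lay lower at an unadjusted limma p below 0.05 and 0 were called, with a median of -0.07. Ppargc1a, the coactivator of the gluconeogenic programme, lay at 9.46, 8.86, 9.84 and 9.79 in wild type and at 8.64, 9.55, 8.02 and 9.06 in knockout liver (difference -0.67, limma adjusted p = 0.867), with overlap. The enzyme genes Pck1 and G6pc lay near the top of the scale and differed by -0.08 and -0.06. Genes of the integrated and endoplasmic reticulum stress responses had 24 of 26 negative differences, with 2 lower at an unadjusted limma p below 0.05, 0 called and a median of -0.19 (-0.13 without fasted WT 4, and 0.04 in fed liver). Sdf2l1, a stress-induced gene of the endoplasmic reticulum, spanned 8.57 to 10.25 in wild type and 8.44 to 9.18 in knockout liver (-0.81). Nupr1, a stress-induced nuclear protein gene, lay at 6.36 on fasted WT 4, and its difference of -0.36 was -0.24 without that array.

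**Figure D5:**
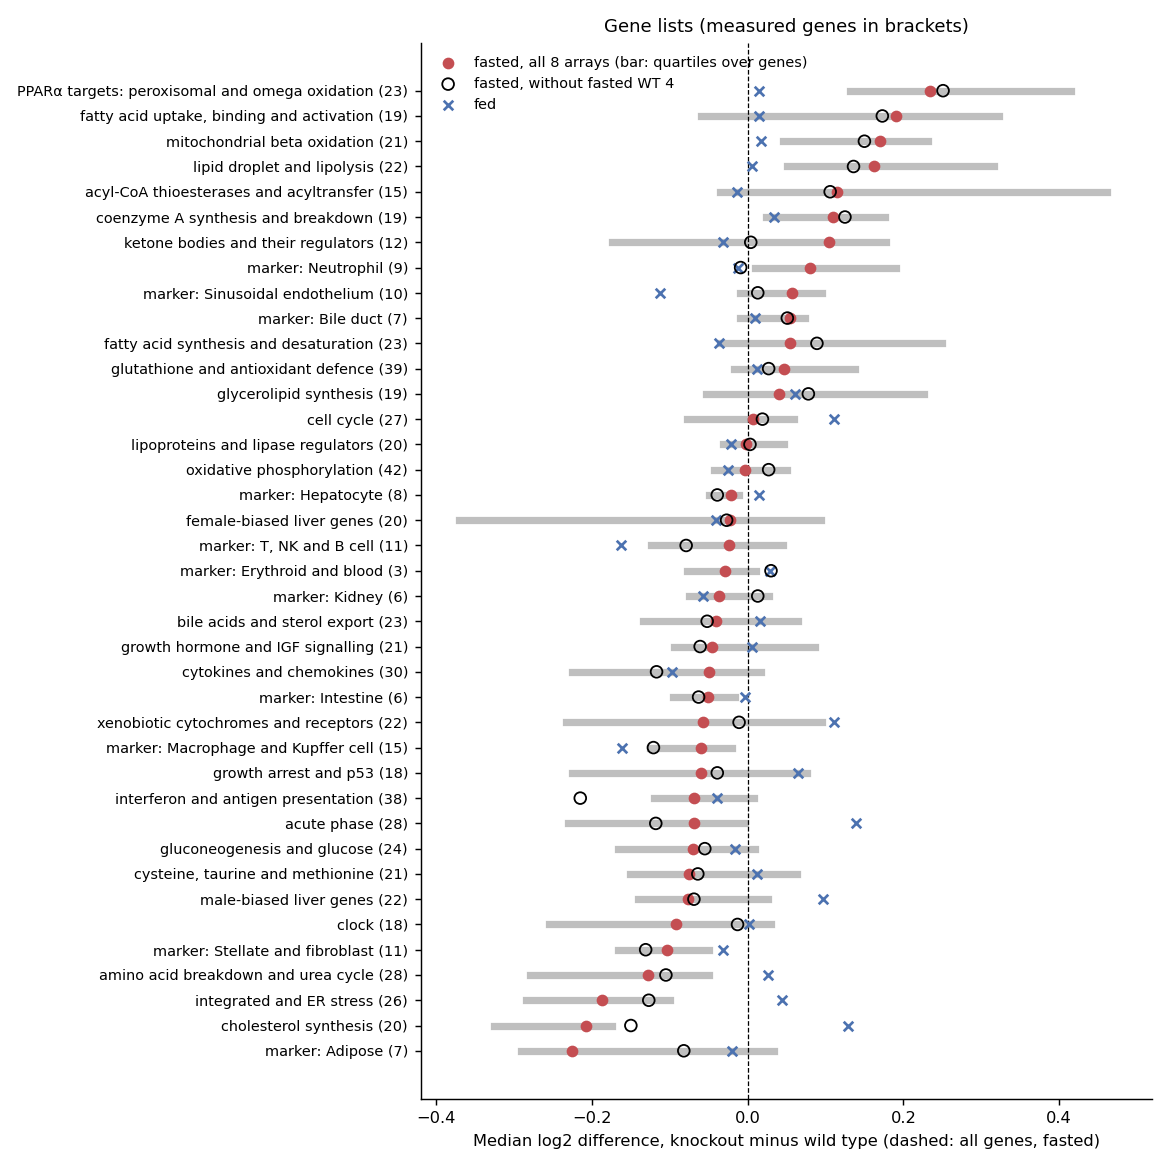
Median log2 difference, knockout minus wild type (horizontal axis), of 39 gene lists (vertical axis, measured genes in brackets). Red points are fasted liver with all 8 arrays and grey bars the quartiles over genes, open circles leave out fasted WT 4, crosses are fed liver and the dashed line is the median of all genes. The PPARα list lay at 0.23 and sterol synthesis at -0.21, and the interferon list moved from -0.07 to -0.21 without fasted WT 4.

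Interferon and antigen presentation genes gave a different picture with and without fasted WT 4. The 38 measured interferon and antigen presentation genes had means of 7.80, 7.61, 7.75 and 7.11 on fasted WT 1 to 4 and of 7.44, 7.55, 7.49 and 7.46 on fasted KO 1 to 4. Fasted WT 4 was the lowest array and the other 3 wild type arrays lay above all knockout arrays. With all arrays 26 of 38 differences were negative, 2 genes lay lower at an unadjusted limma p below 0.05, 0 were called and the median was -0.07. It became 0.016 without fasted WT 1, so its sign turned with 1 array. Without fasted WT 4, 1 of the 38 was positive, 9 lay lower at an unadjusted limma p below 0.05 (379 of all genes, 2.01%), 7 had all knockout arrays below all wild type arrays (2.66% of all genes) and the median was -0.21. Within the codes of the array names the median was -0.25 for code 5 and 0.11 for code 7, which holds fasted WT 4. Ifit3, an interferon-induced gene, lay at 7.92, 7.92, 8.44 and 6.73 in wild type and at 7.39 to 7.71 in knockout liver, and Gbp2, an interferon-induced GTPase gene, at 6.91, 6.58, 6.81 and 5.48 and at 5.94 to 6.34. Both were chosen after their values were seen, and both show the same low array. Psmb8, an immunoproteasome subunit gene, differed by -0.40 with and -0.51 without fasted WT 4. In fed liver 16 of the 38 interferon and antigen presentation genes had a positive difference, and the median was -0.04. At an unadjusted limma p below 0.05, 5 lay lower there (3.35% of all genes) and 1 higher (2.41% of all genes).

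Il1b, the gene of the cytokine interleukin-1β, lay at 6.06, 6.14, 6.34 and 5.70 in wild type and at 5.39, 5.65, 5.58 and 5.18 in knockout liver. The groups did not overlap, although fasted WT 4 was just above fasted KO 2 (difference -0.61, SE 0.18, limma adjusted p = 0.85, and -0.73 without fasted WT 4). The chemokine gene Cxcl9 lay at 8.96, 8.00, 8.60 and 7.08 in wild type and at 7.18, 7.81, 7.47 and 7.12 in knockout liver, with fasted WT 4 below every knockout array (difference -0.76, and -1.13 without it). Over 30 measured cytokine and chemokine genes the median was -0.05, with 3 lower at an unadjusted limma p below 0.05 and 0 called. Without fasted WT 4 it was -0.12, with 4 lower, and in fed liver it was -0.10, also with 4 lower (3.35% of all genes there). Tnf, the tumour necrosis factor gene, and Ccl2, a monocyte chemokine gene, lay under the array medians in both genotypes and differed by -0.21 and -0.17. Of the 28 acute phase genes 0 were called and 0 had an unadjusted limma p below 0.05, with a median of -0.07. Their median in fed liver was 0.14. The acute phase gene Saa2 lay at 6.80, 7.65, 8.33 and 9.49 in wild type and at 6.31, 9.99, 6.20 and 6.14 in knockout liver, so fasted KO 2 stood alone in its group.

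Markers of other liver cells were set beside the immune genes. The 15 macrophage and Kupffer cell markers had 3 positive differences, 0 at an unadjusted limma p below 0.05 and a median of -0.06. Without fasted WT 4, 1 of the 15 was positive and the median was -0.12, and with other single arrays left out it ran from -0.147 without fasted KO 2 to 0.046 without fasted KO 1. The list had array means of 8.23 to 8.68 in wild type and 8.00 to 8.68 in knockout liver. The macrophage gene Cd68 lay at 7.35 to 8.09 and at 7.07 to 8.23. The 11 T, NK and B cell markers had 5 positive differences and a median of -0.02, and 2 of them, the T cell genes Cd3d (-0.29) and Cd4 (-0.23), lay lower at an unadjusted limma p below 0.05 (2.30% of all genes). Both are dim: Cd3d lay at 3.58 to 4.16 in wild type and 3.43 to 3.70 in knockout liver, and Cd4 at 5.03 to 5.46 and 4.73 to 5.07. Leaving out fasted WT 4 gave 1 positive difference of the 11 and a median of -0.08. It was -0.145 without fasted KO 2 and 0.054 without fasted WT 3. Array means were 4.48 to 4.86 in wild type and 4.42 to 4.81 in knockout liver, and the 9 neutrophil markers had a median of 0.08 (-0.0090) and means near background. The 10 sinusoidal endothelial markers had a median of 0.06, and the 7 bile duct markers 0.06. The 11 stellate cell and fibroblast markers had a median of -0.10 (-0.13 without fasted WT 4) and array means of 7.59 to 7.79 in wild type and 7.49 to 7.70 in knockout liver. Among them Col1a2 lay at 6.40, 6.34, 6.29 and 6.41 in wild type and at 5.75, 6.03, 5.99 and 6.02 in knockout liver. The groups did not overlap (difference -0.41, limma adjusted p = 0.85). No marker of these 6 lists was called. Fed liver gave medians of -0.16 for macrophage, -0.16 for T, NK and B cell and -0.11 for endothelial markers. Positive differences there numbered 3 of 15, 1 of 11 and 0 of 10. Fed medians were -0.03 for stellate cell, -0.01 for neutrophil and 0.01 for bile duct markers. The part of cell makeup in the immune differences was not tested.

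The remaining lists showed no lean beyond a few genes. Male-biased liver genes (22 measured, median -0.08) and female-biased genes (20, median -0.02) had 0 calls by limma, and 2 and 1 genes lower at an unadjusted p below 0.05. The male-biased gene Selenbp2 differed by -0.82 (-0.53 without fasted WT 4). Cux2, a female-biased transcription factor gene, lay at 4.85, 5.33, 5.52 and 5.93 in wild type and at 4.85, 4.90, 4.68 and 4.74 in knockout liver. Wild type arrays spread upward from the knockout level, and its difference of -0.62 was called without fasted WT 1 (-0.80, limma adjusted p = 0.0287). Medians were -0.09 for 18 clock genes (-0.01 without fasted WT 4), 0.0070 for 27 cell cycle genes, -0.06 for 18 growth arrest and p53 genes, -0.05 for 21 growth hormone and IGF genes and -0.06 for 22 xenobiotic cytochrome and receptor genes, with 0 called by limma in each and between 1 and 2 genes per list at an unadjusted p below 0.05. Cry1, a clock repressor gene, differed by -0.61 and Sult1a1, a sulfotransferase gene, by -0.44. Markers of adipose tissue (7 measured, median -0.23, and -0.08 without fasted WT 4), kidney (6, -0.04), intestine (6, -0.05) and blood (3, -0.03) and 8 genes listed for differences between laboratory substrains (0.11) had 0 calls by limma and 1 gene in all, the kidney gene Kap (-0.20), at an unadjusted p below 0.05. Kap lay near background, at 2.87 to 3.27 in wild type and 2.73 to 3.06 in knockout liver.

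Genes next to Vnn1 were examined because a targeted locus can carry flanking DNA from the cells in which it was made. Only protein-coding genes with a probe set of 1 symbol were taken, so probe sets with several symbols or none are not covered. Of 40 measured neighbours on chromosome 10, 20 on each side, 0 were called by limma. At an unadjusted limma p below 0.05, 1 lay higher (3.19% of all genes) and 3 lower (2.30% of all genes), and the median was -0.03. Of these fasted differences, 3 had the same direction in fed liver. In fed liver 5 of the 40 were below that p, against 2.41% of all genes higher and 3.35% lower. Raet1e, a gene for a ligand of the NKG2D receptor, lay at 7.96, 7.57, 7.59 and 7.06 in fasted wild type and at 6.63, 5.97, 6.56 and 6.47 in fasted knockout liver. The groups did not overlap (difference -1.14, SE 0.28, limma adjusted p = 0.707), and fed liver gave -0.73. Pde7b, a phosphodiesterase gene, differed by 0.53 in fasted and 0.57 in fed liver. The remaining genes of the fasted count, the kinase gene Sgk1 (-0.57) and Moxd1 (-2.74), a monooxygenase-like gene, gave -0.03 and 0.21 in fed liver. Moxd1 lay at 4.25, 6.70, 7.90 and 10.10 in fasted wild type and at 5.44 or lower on every fasted knockout array. Its wild type arrays ran from background to a high level, with fasted WT 4 the highest, and the difference was -1.78 without that array (limma adjusted p with all arrays = 0.867). Pde7b and Sgk1 were chosen after their values were seen.

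The comparison was then repeated on 7 arrays, without fasted WT 4. Vnn1 and Cpne5 were called, 2 of 18820 genes (0.0106%). At an unadjusted limma p below 0.05, 481 genes (2.56%) lay higher and 379 (2.01%) lower. In 554 genes (2.94%) all knockout arrays lay above all 3 wild type arrays, and in 501 (2.66%) below. Groups separate more easily with 3 wild type arrays than with 4, so these shares do not compare with those of all arrays. The PPARα list kept a positive difference in 22 of 23 genes, with 4 genes higher at an unadjusted limma p below 0.05 in place of 8. Mitochondrial beta oxidation had 16 of 21 and 1 in place of 5. Amino acid breakdown had 24 of 28 negative differences, with 3 genes lower in place of 7. The median SD of the wild type arrays was 0.130 without that array, against 0.143 with it and 0.124 in the knockout.

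In fed liver, 1 gene (0.00531%) was called, Vnn1. At an unadjusted limma p below 0.05, 453 genes (2.41%) lay higher and 631 (3.35%) lower in the fed knockout. The PPARα list had a positive difference in 12 of 23 genes there, against 23 of 23 in fasted liver, and the amino acid list a negative one in 9 of 28, against 27 of 28. The fasted and fed comparisons share no array. Of the 23 PPARα genes 2 had an unadjusted limma interaction p below 0.05, and of the 28 amino acid genes 3, with 0 passing the adjusted threshold in either list.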

How the data were processed

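Liver RNA (100 ng per sample, Ambion kit for whole transcripts, per the labels' protocols) was hybridised to 16 arrays. The authors deposited log2 intensities from RMA, per the submitters' processing notes. Its version and the array's library files and genome build were not given in the sources used here. RMA scales the arrays to each other, so differences are relative to the bulk of genes. The table held 35556 probe sets. A probe annotation named 23099 of them, 21218 with 1 symbol and 1881 with several, and 12457 were unnamed here. Probe sets with 1 symbol were used, and for 1386 genes with more than 1 the brightest probe set over the 16 arrays stood for the gene. This gave 18820 genes, dim ones included.

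A mean per group was fitted to all 16 arrays with limma 3.58.1 in R 4.3.3 (12 residual and 4.66 prior degrees of freedom, two-sided tests, Benjamini-Hochberg adjustment over all genes). The fasted and fed genotype comparisons and their difference were the contrasts. Lists (41, with 836 genes, 737 of them measured) are described by counts and medians without a test. The comparison, the members and the lists were chosen with earlier results of these data known. The procedure was tested on simulated arrays.

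The rule for named genes took the called genes, up to 12 of the largest differences in each direction among genes with unadjusted p below 0.01, groups that did not overlap and a higher mean above the median of all genes (5.77), up to 3 members of each list in each direction at unadjusted p below 0.05, the 6 smallest interaction p-values, and a fixed set of liver genes. It named 113 genes, of which the text prints a part. Predicted genes and receptor families were skipped. Gm15441, Cyp2a22, Vangl1, Nr4a1, Slco1a4, Cd36, Acaa1a, Acaa1b, Pex11a, Crat, Acadm, Cpt2, Acsl5, Mogat1, Acot4, Hsd17b4, G0s2, Cpa1, Gbp2, Ifit3, Pde7b and Sgk1 fall outside it and were chosen after their values were seen.

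Alternatives were other scalings, filters on dim genes, other variance priors, array weights, only the fasted arrays, blocks for title number and a code (5 or 7) in the array names, averaging probe sets within a gene, other thresholds, and leaving out each array or the 3 arrays whose name ends in 2, whose meaning is not given. A fit of every probe set and one without fasted WT 1 and 4 were added after the data were examined. Promoter sequences are those of RefSeq (GRCm38.p6).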

Additional observations from a re-analysis of the deposited data

Results flagged for a closer look

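Of 292 groups of 4 fasted arrays examined, one per gene or list mean named in the text and genotype, 22 (7.53%) had an array whose gap to the nearest of the others took up more of the group's range than Dixon's 95% critical value allows. Chance flags about 1 in 20 such groups, or 14.6 here. Fasted WT 4 was the outlying array for the pancreas marker mean (7.47, against 3.72 to 3.77 on the other 3), Ctrb1 (10.12, against 4.07 to 4.31), Cpa1 (9.88, against 4.33 to 4.69), Bdh1 (10.12, against 11.02 to 11.07) and Cpt2 (11.37, against 11.46 to 11.47).

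Fasted KO 2 stood apart most often. It was high on Saa2 (9.99, against 6.14 to 6.31), Nr4a1 (6.41, against 5.15 to 5.30), the acute phase mean (10.21, against 9.80 to 9.86) and the cysteine, taurine and methionine mean (10.26, against 10.07 to 10.08). It was low on Slc27a1 (8.89, against 9.72 to 9.89), Gpd1 (11.79, against 12.21 to 12.24), Pank1 (11.87, against 12.32 to 12.39), Scd1 (12.62, against 12.95 to 13.00) and Acsl5 (10.96, against 11.15 to 11.19).

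Fasted KO 1 was high on P2ry1 (8.50, against 8.04 to 8.09) and low on Col1a2 (5.75, against 5.99 to 6.03), Cyp4a14 (13.10, against 13.28 on each of the others) and the hepatocyte marker mean (12.97, against 13.08 to 13.09). Fasted WT 3 was high on Cpt1a (12.49, against 12.23 to 12.27) and low on Srebf1 (6.85, against 7.13 to 7.18). Fasted KO 3 was low on Angptl4 (10.98, against 11.10 to 11.12), and fasted KO 4 on the mean of the substrain genes (7.97, against 8.16 on each of the others).

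Probe set 10368224, which has no gene name here and so belongs to no comparison above, lay at 5.94, 6.00, 5.65 and 5.88 in fasted wild type and at 4.77, 4.93, 4.84 and 4.95 in fasted knockout liver. In a limma fit of all 35556 probe sets its difference was -0.996 (adjusted p = 7.86e-05), and in fed liver -1.32 (adjusted p = 3.05e-06). Probe set 10362091, which has several symbols, differed by -2.19 in fasted liver (limma adjusted p = 0.0566) and by -2.64 in fed liver (limma adjusted p = 0.00812) in that fit, and the unnamed probe set 10338133 by -0.85 (limma adjusted p = 0.0684) and -1.05 (limma adjusted p = 0.00831).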

How the results depend on the processing

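Vnn1 was called in 30 of 30 settings that tested it, with differences of -7.12 to -6.61, Cpne5 in 25 of 29 and Ctse in 19 of 30, and no called gene changed sign. These counts leave out other thresholds and the limma fit of every probe set. That fit called Vnn1 (adjusted p = 7.86e-05) and Cpne5 (0.0459) but not Ctse (0.0684). The 3 called genes became 1 without the 3 arrays whose name ends in 2, without fasted WT 1 and 4, and at adjusted p below 0.01, and 1 to 5 with single arrays left out. The 5 were found without fasted WT 1 and without fasted KO 2. Genes at unadjusted p below 0.05 numbered 571 above the median level, 1837 over all probe sets and 835 to 1614 with single arrays left out. The fed comparison called 2 genes with arrays centred on the median, genes above the median, a trended or robust prior or array weights, 0 without the arrays ending in 2, 4 over all probe sets, and 1 to 3 with single arrays left out. The interaction called 0 to 1, the 1 without fasted KO 3.

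List medians moved for glycerolipid synthesis (0.092 with array weights, 0.106 without the arrays ending in 2, 0.130 without fasted WT 1 and 4, 0.027 to 0.106 with single arrays left out), fatty acid synthesis (0.190 without fasted WT 1 and 4), female-biased genes (-0.256 above the 30th percentile, -0.335 above the median level), cytokines (-0.232) and cell cycle genes (0.164, both above the median level). Uptake ranged from 0.063 to 0.287, coenzyme A from 0.046 to 0.125, neutrophil markers from -0.037 to 0.158 and adipose markers from -0.240 to -0.082 with single arrays left out. Filters on dim genes gave 0.037 for adipose markers, 0.042 for kidney and 0.318 for intestine, with fewer genes tested, and without fasted WT 1 and 4 adipose gave -0.040. Of 41 list medians, 14 turned sign with a single array left out, within -0.215 to 0.158, among them the interferon, macrophage and T cell lists. The cause of the other moves was not tested.

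Arrays of the same title number showed no clear shared deviation, with correlations of -0.06, -0.17, -0.07 and 0.21. Of the 4 numbers, 1 was best matched to itself. So few correlations cannot decide whether the numbers mark pairs or batches. The numbers also go with the unexplained code in the array names. With title number as a replicate block 2 genes were called, and Ctse was not (limma adjusted p = 0.0606). Depth does not apply to arrays. Levels under the array medians of 5.19 to 5.29, such as Cpne5 in wild type liver, are close to background and understate folds.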
